A study of Mus musculus with 19 samples.

Results

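Endothelial lipase, encoded by Lipg, was followed here together with 5 genes of related function in mouse dorsal root ganglia, which hold the cell bodies of sensory neurons. The 6 genes are Lipg, Lpl, Lipc, Lipe, Pnpla2 and Gpihbp1, taken by name from a table of 36682 genes, and each name matched 1 entry. Lipg was chosen by its measured difference in level between AP20187 and vehicle in these same libraries, so its values are given as a description with no test. The other 5 genes were chosen for their function, with earlier results of these data known.

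The ganglia came from 19 male mice, all homozygous for the MaFIA (macrophage Fas-Induced apoptosis) transgene. In that strain the Csf1r promoter drives a death-inducing Fas construct in macrophages and other Csf1r-expressing myeloid cells, and the dimerizing drug AP20187 activates it. Each mouse was given AP20187 or vehicle intraperitoneally each day for 5 days. Of the mice with destabilization of the medial meniscus (DMM), a surgical model of knee osteoarthritis, 5 received AP20187 (numbers 58 to 62) and 5 received vehicle (numbers 32, 33, 34, 63 and 64), with injections 8 weeks after surgery. Of the age-matched naive mice, which had no surgery, 4 received AP20187 (numbers 1, 3, 4 and 5) and 5 received vehicle (numbers 1 to 5). Ganglia L3 to L5 of 1 side were pooled per mouse and poly(A) RNA was sequenced. No group without the transgene received the drug, so an effect of AP20187 itself and an effect of activating the construct cannot be told apart.

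Lipg, Lpl and Lipc belong to the family of secreted lipases that act on lipoproteins at the surface of blood vessels. Endothelial lipase mainly cleaves the phospholipids of high-density lipoprotein, lipoprotein lipase (Lpl) cleaves triglycerides, and hepatic lipase (Lipc) is made mostly by the liver. Gpihbp1 is the capillary protein that carries lipoprotein lipase to the vessel lumen. Pnpla2 (adipose triglyceride lipase) and Lipe (hormone-sensitive lipase) act inside cells, where they release fatty acids from lipid droplets in successive steps.

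Libraries held 60984830 to 74691396 counts. Levels of 1 gene are compared between groups in CPM, a gene's count relative to its TMM-adjusted library total, and levels of different genes as the deposited FPKM, which also divides by gene length. A level of 3 counts per library, 0.0442 to 0.0504 CPM by group, was taken as the limit of detection, which covers counting error only. Differences are given as the log2 fold change of an edgeR quasi-likelihood model of the 4 groups, with its standard error (SE), and p-values are Benjamini-Hochberg adjusted over 22778 tested genes, with 0.05 as the threshold. All 6 genes passed the filter on low counts. The tissue label held: the sensory neuron gene Prph was at 177 CPM or more in each group. Csf1r, the gene of the targeted cells, averaged 69.1 CPM with AP20187 and 70.0 with vehicle in DMM mice, and 69.4 and 50.9 in naive mice. The neutrophil gene S100a8 averaged 1132 CPM with AP20187 and 139 with vehicle in DMM mice, and 1353 and 56.7 in naive mice. In bulk tissue, fewer cells of a type and less RNA per cell cannot be told apart.

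Lipg was low in every vehicle library and high in every AP20187 library. Lipg (ENSMUSG00000053846) lies on the minus strand of chromosome 18 at 75072393 to 75094334 (GRCm39), with 2 listed transcripts and no overlapping gene. In DMM mice given AP20187 it was at 415, 243, 273, 231 and 541 CPM in numbers 58 to 62. With vehicle it was at 3.55, 2.73, 1.86, 2.77 and 1.00 CPM in numbers 32, 33, 34, 63 and 64. The lowest of the AP20187 libraries was far above the highest vehicle library, and the counts behind these values were 15415 to 31854 against 68 to 230. In naive mice given AP20187 it was at 278, 229, 137 and 90.6 CPM in numbers 1, 3, 4 and 5. Naive vehicle mice 1 to 5 had 3.51, 3.53, 3.51, 2.94 and 2.29 CPM. Those ranges did not meet either, with 5594 to 16050 counts against 171 to 263.

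**Figure D1:**
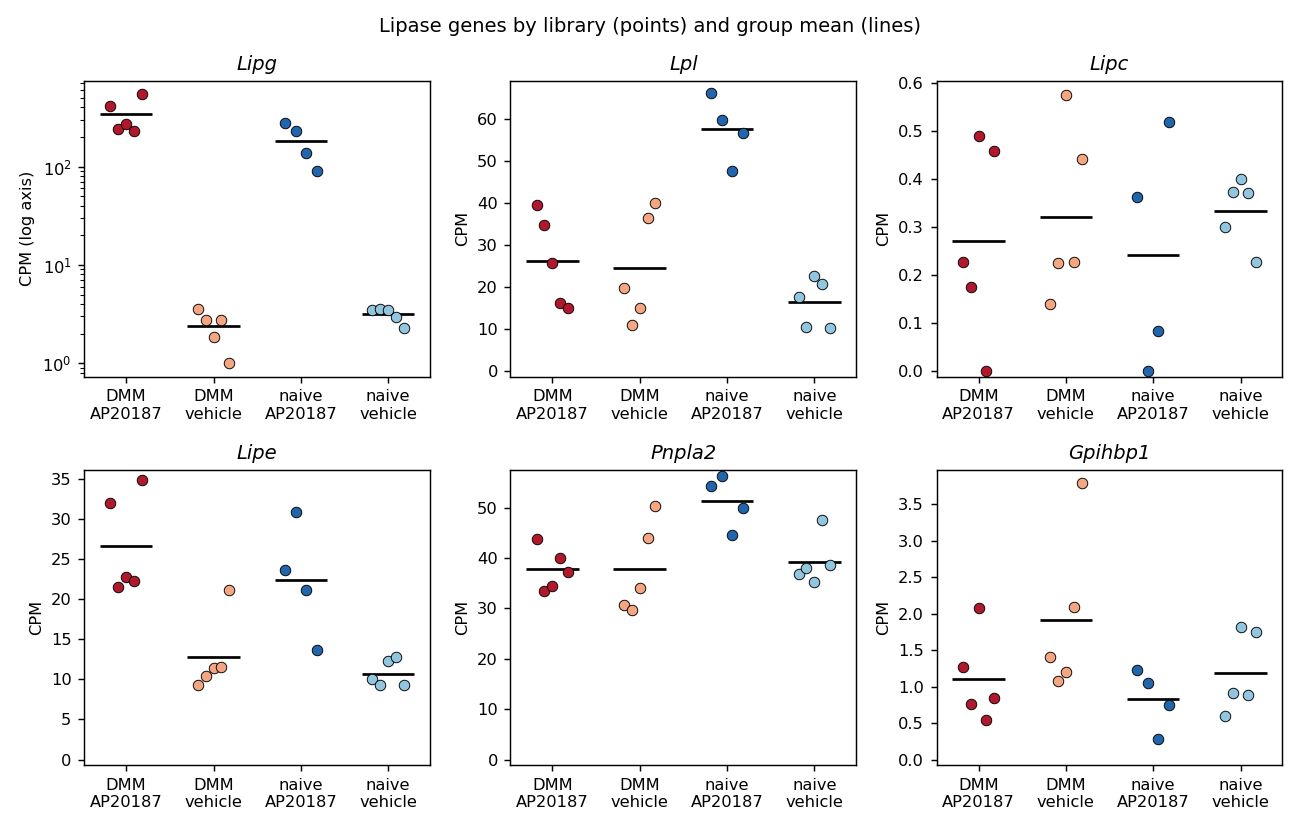
Points are CPM of each library for the 6 lipase genes in the 4 groups, and lines are group means; the Lipg axis is logarithmic and the others are linear. Lipg reaches 90.6 to 541 CPM with AP20187 and 1.00 to 3.55 CPM with vehicle, while the ranges of Lipc and Gpihbp1 overlap between groups.

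Group means of Lipg were 340 ± 134 CPM (SD, n = 5) with AP20187 and 2.38 ± 0.975 (n = 5) with vehicle in DMM mice, a ratio of 143. In naive mice they were 183 ± 85.0 CPM (n = 4) and 3.15 ± 0.546 (n = 5), a ratio of 58.2. The fitted log2 fold change was 7.16 (SE 0.43) in DMM and 5.86 (SE 0.41) in naive mice. It was the 26th highest of 22778 genes in the first comparison and the 71st highest in the second. Under vehicle, DMM and naive libraries overlapped, with a log2 fold change of -0.41 (SE 0.34) for DMM against naive. With AP20187, DMM libraries were higher by 0.89 log2 (SE 0.35), and the ranges also overlapped. The DMM difference exceeded the naive one by 1.30 log2 (SE 0.49). No test is given for these Lipg values, and both AP20187 comparisons use the drug contrast that put the gene in the set.

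The gene stood at different places in the order of transcript levels. By mean FPKM it ranked 558 of 36682 genes in DMM with AP20187 and 1216 in naive with AP20187. It ranked 16240 in DMM with vehicle and 15097 in naive with vehicle. Its mean FPKM was 69.4 and 32.9 with AP20187 in DMM and naive mice, and 0.494 and 0.651 with vehicle. Of the summed FPKM of the 6 genes, it took a median of 75.5% and 58.8% with AP20187, and 2.73% and 4.23% with vehicle. FPKM of naive AP20187 numbers 1, 3 and 4 were 7.83% to 9.88% lower relative to their counts than in the middle library, and number 5 was not.

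**Figure D2:**
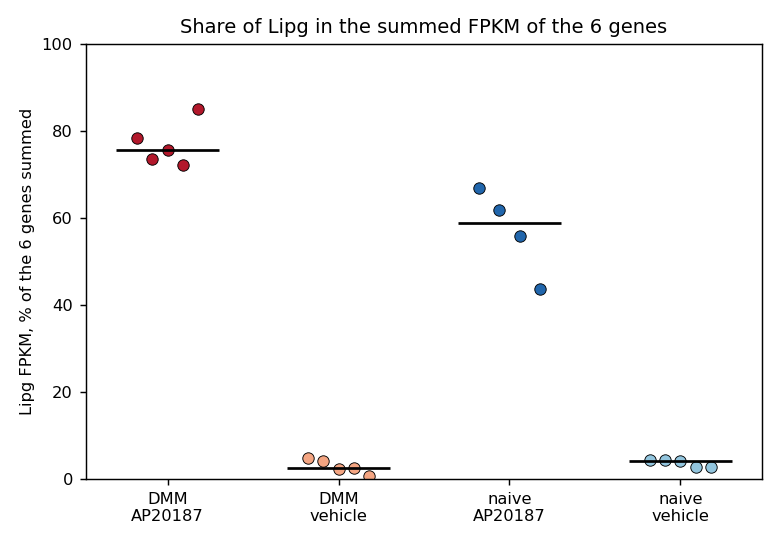
Each point is a library: the share of Lipg, in percent, in the summed FPKM of the 6 genes, with lines at the group medians of 75.5%, 2.73%, 58.8% and 4.23% from left to right. All AP20187 libraries are at 43.7% or more, and all vehicle libraries are at 5.00% or less.

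Markers of endothelial cells, neutrophils and macrophages were set beside Lipg. Of 12 endothelial markers, 6 rose with AP20187 in DMM mice, where 11.3% of all tested genes rose, and 5 in naive mice, where 8.61% did, and none fell. Their summed level was 320 to 493 CPM against 137 to 278 in DMM mice, and 389 to 751 against 129 to 488 in naive mice. Naive vehicle 4 had the highest endothelial sum among vehicle libraries, 488 CPM, and 2.94 CPM of Lipg. Of 11 neutrophil markers, 7 rose in DMM and 8 in naive mice. Their sum was 15252 to 26125 CPM against 386 to 7631 in DMM mice, and 7073 to 24844 against 827 to 2231 in naive mice. Within the AP20187 groups, Lipg and this sum ran in nearly the same order. In DMM numbers 62, 58, 60, 59 and 61 the neutrophil sums were 26125, 23407, 18182, 18120.5 and 15252 CPM, beside Lipg at 541, 415, 273, 243 and 231 CPM. In naive numbers 1, 3, 4 and 5 the sums were 24159, 24844, 11141.5 and 7073 CPM, beside Lipg at 278, 229, 137 and 90.6 CPM. In DMM vehicle 64, the vehicle library with the highest neutrophil sum (7631 CPM), Lipg was at 1.00 CPM. That library was picked after its values had been seen, and the part of these cells in the level of Lipg was not tested. Of 10 macrophage markers, 1 rose in DMM mice (Mrc1) and 3 in naive mice (Aif1, C1qb and Cd68), and their summed level was 247 to 1044 CPM against 171 to 648 in DMM mice, and 478 to 807 against 92.1 to 507 in naive mice. The part of these cell types in the Lipg difference was not tested.

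Genes whose profile was most like that of Lipg were sought by Pearson r of log2 CPM over 19 libraries. The libraries form separate clusters by drug, so each r is followed by its value within the 9 AP20187 libraries, with no p. Ggt1, a gamma-glutamyltransferase, had r = 0.99 and 0.94 within AP20187. Slc28a3, a nucleoside transporter with no counts in vehicle libraries, had 0.99 and 0.67. Nos2, the inducible nitric oxide synthase, had 0.98 and 0.96. For Il4ra, the interleukin 4 receptor alpha chain, the values were 0.98 and 0.97, and for G6pdx, glucose-6-phosphate dehydrogenase, 0.96 and 0.97. Within the 10 vehicle libraries r was -0.02 for Ggt1, 0.29 for Nos2, 0.33 for Il4ra and -0.75 for G6pdx. The lowest r values over all libraries were -0.95 for Rag1, a recombinase of lymphocyte precursors, and -0.94 for Armcx6. Within AP20187 libraries Rag1 had 0.19 and Armcx6 -0.85. All points share their library and its scaling.

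The genes beside Lipg were compared to see whether the region moved with it. Within 300 kb, a window set after the values had been seen, there were 13 other genes, of which 6 could be tested. Their log2 fold changes ran from -0.88 to 0.79 in DMM and from -0.33 to 1.78 in naive mice. Dym, which encodes dymeclin, a protein of the Golgi, was the only one to pass the edgeR test, at 49.5 CPM with AP20187 and 90.9 with vehicle in DMM mice (log2 fold change -0.88, adjusted p = 0.0349). With 23.8% of all tested genes passing in that comparison, 1 of 6 is not a result about the region. Acaa2, a mitochondrial thiolase, was at 60.6 and 54.4 CPM in DMM mice and at 53.8 and 48.6 CPM in naive mice. Rpl17, a ribosomal protein gene, had the highest value of the 6 in naive mice, 1.78 (SE 0.69, adjusted p = 0.0987).

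**Figure D3:**
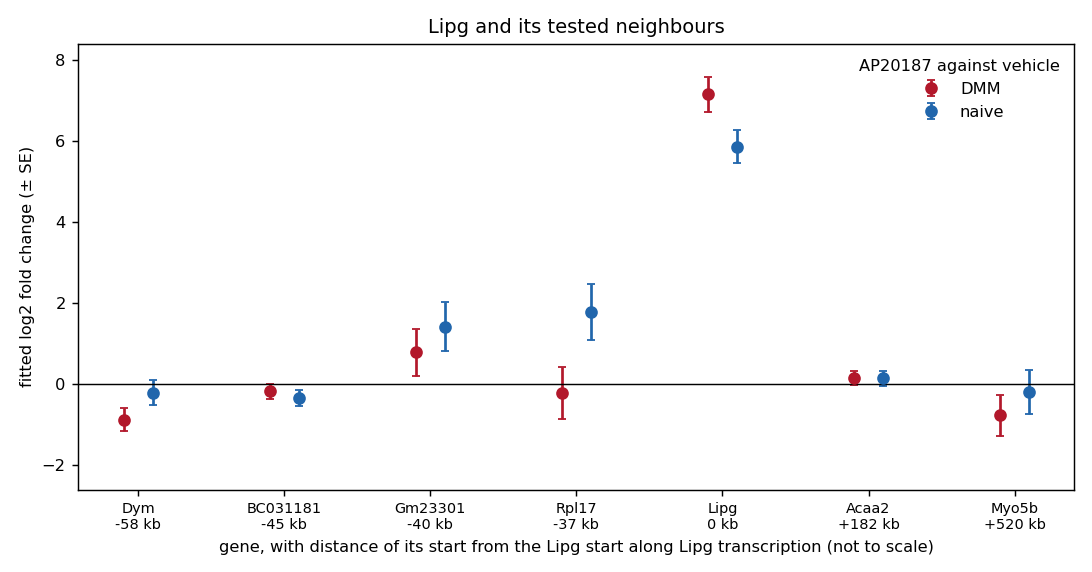
Fitted log2 fold change of AP20187 against vehicle (± SE) for Lipg and its 6 tested neighbours, in DMM and in naive mice; genes are ordered by the distance of their start from that of Lipg, with equal spacing. Lipg lies at 7.16 and 5.86, and each neighbour lies between -0.88 and 1.78.

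Lpl (ENSMUSG00000015568, chromosome 8, 69333143 to 69359586, plus strand) rose with AP20187 in naive mice. Naive AP20187 mice 1, 3, 4 and 5 had 66.3, 59.8, 47.7 and 56.8 CPM. Naive vehicle mice had 17.5, 10.6, 22.6, 20.7 and 10.3 CPM, and the ranges did not overlap. The log2 fold change was 1.82 (SE 0.37, edgeR adjusted p = 0.00519). In the same comparison 8.61% of all tested genes rose and 9.39% had AP20187 ranges wholly above vehicle. Adipocytes and muscle are known sources of Lpl: the skeletal muscle list was at 1828 to 2799 CPM in naive AP20187 and at 13.4 to 486 CPM in naive vehicle libraries, with 2 of 8 genes (Mylpf and Tnnt3) higher by test. The 9 adipocyte markers summed to 129 to 179 CPM against 67.0 to 136, none of them passed, and Adipoq, the adipocyte hormone adiponectin, averaged 2.26 and 1.56 CPM. Macrophage markers summed to 478 to 807 CPM against 92.1 to 507 in the same libraries, with 3 of 10 higher by test. Fibroblast markers summed to 2808 to 5538 CPM against 801 to 4078, and none of 6 passed. In DMM vehicle 32 the muscle sum was 2044 CPM and Lpl was at 19.8 CPM. The part of any of these cell types in the Lpl difference was not tested.

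In DMM mice Lpl split by mouse. DMM AP20187 mice 58 to 62 had 39.5, 34.9, 25.8, 16.2 and 14.96 CPM. DMM vehicle mice 32, 33 and 34 had 19.8, 11.01 and 14.9 CPM, while numbers 63 and 64 had 36.5 and 39.9. Its log2 fold change there was 0.11 (SE 0.35, edgeR adjusted p = 0.864). Against numbers 32 to 34 alone it was 0.79 (adjusted p = 0.0795), and against 63 and 64 alone -0.50 (adjusted p = 0.492). The labels do not say what separates the 2 runs of numbers, and marker sums differed between them as well. Summed macrophage markers were at 196, 171 and 221 CPM in vehicle 32 to 34 and at 408 and 648 in 63 and 64. Summed over 6 fibroblast markers, the same libraries had 1973, 1141 and 1471 CPM, then 4164 and 6503. Among DMM AP20187 mice 58 to 62 the macrophage sums were 1044, 937, 760, 296 and 247 CPM and the fibroblast sums 6020, 5894, 4832, 2123 and 1609 CPM, in the same order as Lpl. The part of these cells in the Lpl values was not tested. With AP20187, Lpl was lower in all DMM libraries than in all naive libraries, by -1.13 log2 (SE 0.37, adjusted p = 0.142), and 2.44% of tested genes had DMM ranges wholly below naive. The skeletal muscle sum was 17.4 to 174 CPM in the former and 1828 to 2799 in the latter. DMM vehicle 32, with a muscle sum of 2044 CPM, had Lpl at 19.8 CPM. The part of muscle RNA in the difference was not tested. The test of the difference between the 2 drug effects gave -1.71 (SE 0.51, adjusted p = 0.289).

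**Figure D4:**
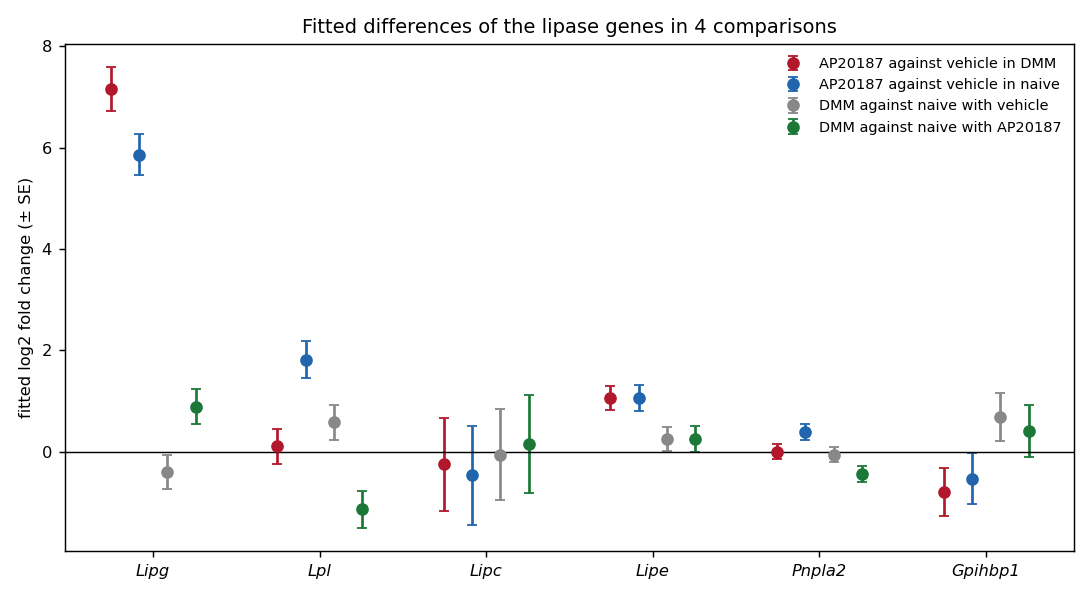
Fitted log2 fold changes (± SE) of the 6 genes in 4 comparisons: AP20187 against vehicle in DMM and in naive mice, and DMM against naive with vehicle and with AP20187. Lipe is at 1.06 in both drug comparisons, Lpl at 0.11 in DMM and 1.82 in naive mice, and the widest error bars belong to Lipc.

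Lipe (ENSMUSG00000003123, chromosome 7, 25078952 to 25098135, minus strand) rose with AP20187 in both DMM and naive mice. RefSeq lists 2 start sites for it on the GRCm38.p6 build, which is not the build of the files, and the counts per gene do not tell which was used. Both promoters, 250 bases before to 50 after the start, are shown because Lipe was the only member that passed in both drug comparisons. Capitals mark matches, on either strand, to GGGCGG or CACGTG among the 5 motifs searched, which also included CCAAT as well as TATAAA and, last, AGGTCA.
chr7:25395938-25396237 (minus strand): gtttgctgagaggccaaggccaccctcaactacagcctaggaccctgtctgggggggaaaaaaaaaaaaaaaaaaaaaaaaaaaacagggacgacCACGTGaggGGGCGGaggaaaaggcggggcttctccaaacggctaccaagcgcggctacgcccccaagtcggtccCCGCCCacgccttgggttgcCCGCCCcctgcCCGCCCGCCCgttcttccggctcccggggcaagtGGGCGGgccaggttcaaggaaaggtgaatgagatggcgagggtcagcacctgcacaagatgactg
chr7:25390063-25390362 (minus strand): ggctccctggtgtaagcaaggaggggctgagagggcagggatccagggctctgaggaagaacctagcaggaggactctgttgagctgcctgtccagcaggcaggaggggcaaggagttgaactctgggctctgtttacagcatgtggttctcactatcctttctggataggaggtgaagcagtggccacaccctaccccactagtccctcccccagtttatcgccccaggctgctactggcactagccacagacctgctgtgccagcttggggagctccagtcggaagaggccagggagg
The first held 6 matches to GGGCGG, of which 2 overlap, and 1 to CACGTG, while the second held none of the 5 motifs. GC content was 61.0% and 60.0%. Of 32817 promoters of this length, 35.6% held GGGCGG and 7.15% held CACGTG, while 37.4% held CCAAT, 13.6% held TATAAA and 16.3% held AGGTCA.

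In DMM mice given AP20187 it was at 32.0, 21.5, 22.7, 22.3 and 34.9 CPM in numbers 58 to 62. With vehicle it was at 9.30, 10.5, 11.4, 11.5 and 21.1 CPM, where the last value, of number 64, came close to the lowest AP20187 library. Naive AP20187 mice had 23.7, 30.9, 21.2 and 13.7 CPM, and naive vehicle mice 9.99, 9.31, 12.3, 12.7 and 9.27. No vehicle library reached the lowest AP20187 library of its kind, and in DMM mice 8.71% of all tested genes had ranges apart in that direction. Log2 fold changes were 1.06 in DMM (SE 0.24, edgeR adjusted p = 0.00542) and 1.06 in naive mice (SE 0.25, adjusted p = 0.0125). The difference between the 2 effects was 0.0036 log2 (SE 0.35, adjusted p = 1.00). Against DMM vehicle 63 and 64 alone the DMM value was 0.71 (adjusted p = 0.225), and against 32 to 34 it was 1.36. Without naive AP20187 3 the naive value was 0.85 (adjusted p = 0.0572). 4732471J01Rik overlaps Lipe on the opposite strand, and it averaged 4.87 CPM against 6.88 in DMM and 4.32 against 7.51 in naive mice. Whether counting used strand is not given in the sources used here, so reads of the pair may not be told apart.

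Set beside Lipg, library by library, Lipe was highest in the same 2 libraries of DMM with AP20187, numbers 62 and 58. Naive AP20187 5 was the lowest of its group for both genes. In DMM with vehicle the library with the lowest Lipg, number 64, had the highest Lipe. The neutrophil marker sums given above ran nearly with Lipe. DMM AP20187 62 and 58 were highest in both, and in DMM vehicle 32, 33, 34, 63 and 64 the sums were 386, 648, 2019, 2645 and 7631 CPM, in the same order as Lipe. In naive AP20187 1, 3, 4 and 5 Lipe was at 23.7, 30.9, 21.2 and 13.7 CPM, beside sums of 24159, 24844, 11141.5 and 7073 CPM. These orders are a description of few libraries, and the part of neutrophil RNA in the Lipe values was not tested.

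Pnpla2 (ENSMUSG00000025509, chromosome 7, 141035111 to 141040656, plus strand) did not pass the threshold in any comparison of the edgeR model. It averaged 37.8 ± 4.24 CPM with AP20187 and 37.7 ± 9.02 with vehicle in DMM mice (SD, n = 5 each). In naive mice it averaged 51.2 ± 5.15 (n = 4) and 39.3 ± 4.81 (n = 5). Its fitted difference was 0.0025 log2 in DMM (SE 0.15, edgeR adjusted p = 0.993) and 0.38 in naive mice (SE 0.16, adjusted p = 0.123). With AP20187, DMM libraries, at 33.5 to 43.8 CPM, were all below naive libraries, at 44.6 to 56.2 (log2 -0.44, SE 0.16, edgeR adjusted p = 0.183). Of tested genes, 2.44% had DMM ranges wholly below naive there. These groups also differed in the skeletal muscle sum given above. DMM vehicle 32, with a muscle sum of 2044 CPM, had Pnpla2 at 30.7 CPM. The part of muscle RNA in the Pnpla2 values was not tested. With voom and sample weights Pnpla2 passed in the naive drug comparison (adjusted p = 0.0477) and between the AP20187 groups (adjusted p = 0.0345). Lpl also passed between the AP20187 groups with voom (adjusted p = 0.0343).

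Gpihbp1 (ENSMUSG00000022579, chromosome 15, 75468477 to 75470062, plus strand) was low, at 0.286 to 3.80 CPM over all libraries. The fitted difference was -0.80 log2 in DMM (SE 0.48, edgeR adjusted p = 0.238) and -0.53 in naive mice (SE 0.51, adjusted p = 0.499). Mean values were thus lower with AP20187, while 6 and 5 of the 12 endothelial markers rose, but the ranges overlapped. The highest value, 3.80 CPM, was again in DMM vehicle 64. Lipc (ENSMUSG00000032207, chromosome 9, 70705410 to 70859508, minus strand) had 0 to 38 counts per library, and 1 library of each AP20187 group had none. The fitted difference was -0.25 log2 in DMM (SE 0.91, edgeR adjusted p = 0.876) and -0.46 in naive mice (SE 0.97, adjusted p = 0.774), so a difference was not detectable at this depth. Lipc overlaps Gm3436, Gm32017 and a gene without a name, of which the first averaged up to 0.236 CPM in a group, close to Lipc itself. Hepatocyte markers summed to at most 21.3 CPM, and Alb, the gene of albumin, had no counts in 4 of 4 naive AP20187, 4 of 5 naive vehicle and 3 of 5 DMM vehicle libraries. In DMM with AP20187 it had none in 1 of 5, and 3 libraries were at 8.45 to 9.39 CPM (521 to 615 counts).

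The order of the 6 genes by mean FPKM differed between drug and vehicle. In DMM with AP20187, Lipg (69.4) came before Pnpla2 (12.2), Lipe (4.38), Lpl (2.48), Gpihbp1 (0.418) and Lipc (0.117), and only Lipe and Lpl, and Gpihbp1 and Lipc, overlapped with their neighbour in the order. In naive with AP20187, Lipg (32.9) again led Pnpla2 (14.6), followed by Lpl (4.72) and Lipe (3.23), which overlapped. With vehicle, Pnpla2 led at 12.5 FPKM in DMM and 12.7 in naive mice, and its range was apart from that of the gene after it. Lpl and Lipe came next and overlapped with each other, at 2.34 and 2.18 FPKM in DMM and 1.53 and 1.77 in naive mice. Lipg was the fifth in DMM and the fourth in naive mice with vehicle, and in both its range overlapped with that of Gpihbp1.

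Of the 5 genes other than Lipg, 1 passed the threshold for AP20187 in DMM (Lipe) and 2 in naive mice (Lpl and Lipe), all of them higher. Of all tested genes, 23.8% passed in DMM mice (11.3% higher and 12.4% lower), and 11.2% passed in naive mice. For DMM against naive with vehicle, edgeR called none of the 5 members and 0% of all genes, with 0 members and 377 genes at an unadjusted p under 0.05. DESeq2 and limma on FPKM called 0 genes there, voom 1, and edgeR 541 when DMM vehicle 63 and 64 alone were used. For DMM against naive with AP20187, edgeR called none of the 5 members and 0.702% of all genes (60 higher and 100 lower). There 2 members (Lpl and Pnpla2) and 3795 of 22778 genes had an unadjusted p under 0.05. The count of called genes and its split depended on the tool: DESeq2 called 628 higher and 481 lower, limma on log2(FPKM + 1) 1008 and 212, and voom 768 and 1688. The difference between the drug effects passed for none of the 5 and for 0.114% of all genes (26, and 224 with DESeq2). Under an unadjusted p of 0.05 were 1 member (Lpl) and 1748 of 22778 genes. DESeq2 and limma on FPKM called no member in these last 3 comparisons.

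Other genes of lipid handling were taken from 5 lists of 83 genes, of which 82 were in the file and 74 could be tested. With AP20187, 9 rose and 8 fell in DMM mice, with a median log2 fold change of -0.09 against -0.10 for all genes. In naive mice 8 rose and 0 fell, with a median of 0.13 against -0.07 for all genes. These are 17 and 8 of 74 genes, beside 23.8% and 11.2% of all genes. On FPKM, whose scale differs in naive AP20187 numbers 1, 3 and 4, the naive split was 6 higher and 9 lower with limma on log2(FPKM + 1). Of all genes 1625 were higher and 2522 lower there. The naive count was 4 without naive AP20187 3 and 5 without naive vehicle 2. The DMM count was 27 without DMM vehicle 64 and 8 against DMM vehicle 63 and 64 alone. In these 4 settings all genes that passed numbered 994, 1292, 7677 and 1156. Neither DMM against naive with vehicle nor that with AP20187 gave a call among the 74, with 3 and 12 at an unadjusted p under 0.05. Of all 22778 tested genes, 377 and 3795 were under it. DESeq2 called 0 and 2 of the 74, beside 0 and 1109 of 22752 genes. With voom the calls were 0 and 8, beside 1 and 2456 of 22778 genes. These counts are not read as particular to the lists.

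Of 23 tested genes of intracellular lipolysis and lipid droplets, 5 rose and 4 fell in DMM mice, where 11.3% of all genes rose and 12.4% fell. In naive mice 3 of the 23 rose, where 8.61% of all genes did, and these counts are not read as particular to the list. Abhd5, the activator protein of Pnpla2, averaged 134 ± 29.1 CPM in drug-treated and 42.7 ± 9.68 in vehicle DMM mice (SD, n = 5 each; log2 fold change 1.65, SE 0.19, edgeR adjusted p = 4.83e-05). In naive mice it was at 89.8 ± 22.4 (n = 4) and 38.1 ± 5.08 (n = 5; 1.24, SE 0.20, adjusted p = 0.00111). Plin2, a lipid droplet coat protein, was at 115 and 43.8 CPM in naive mice (1.39, adjusted p = 0.00321). Plin5, a perilipin of oxidative tissues, was at 2.83 and 0.199 CPM in DMM mice (3.82, adjusted p = 0.00247). The neutrophil sums given above were also higher with AP20187. Abhd5 was highest in DMM AP20187 62 and 58, at 181 and 143 CPM, and at 109 CPM in naive AP20187 1 and 3 against 72.9 and 68.0 in 4 and 5, the same libraries in which the neutrophil sums were higher. The part of these cells in the higher values was not tested. The 4 genes that fell in DMM mice were Prkaca, the catalytic subunit of protein kinase A, from 115 to 53.8 CPM (adjusted p = 0.0119), Abhd6, a monoacylglycerol hydrolase, from 27.6 to 15.05 CPM (adjusted p = 0.0142), and also Mgll and Pde3b. The summed sensory neuron markers were 1419 to 4780 CPM with AP20187 and 3904 to 9205 with vehicle in DMM mice, where 6 of 10 fell, beside 12.4% of all tested genes. The part of neuronal RNA in the lower values was not tested.

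**Figure D5:**
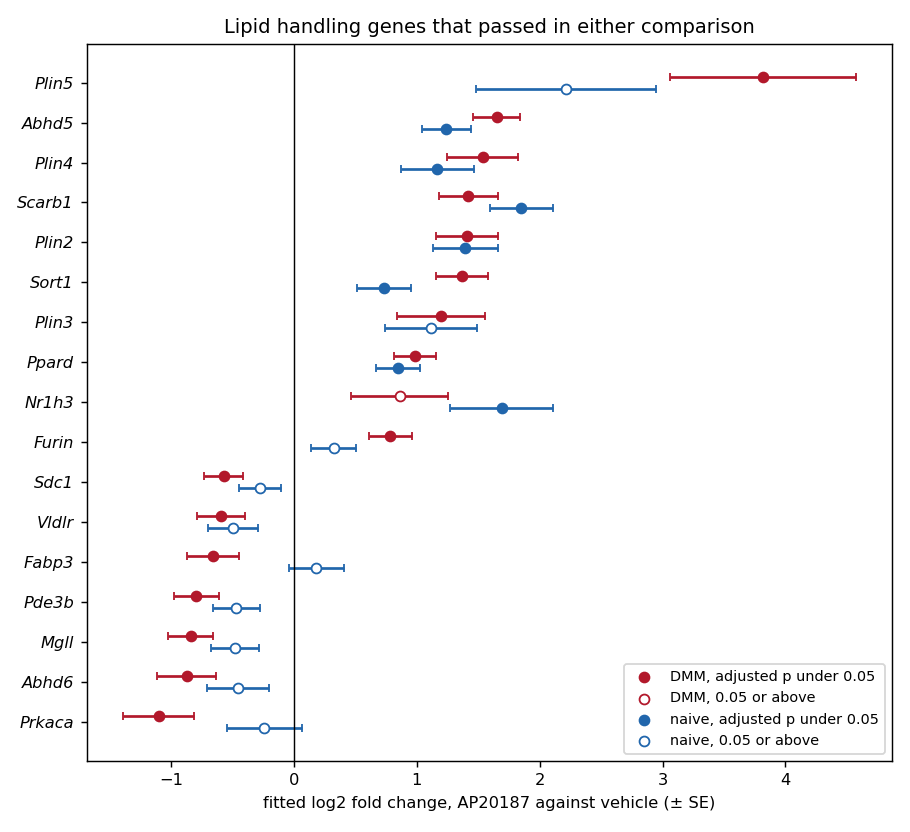
Fitted log2 fold changes of AP20187 against vehicle (± SE) for 17 lipid handling genes that passed in DMM or naive mice; filled points have an adjusted p under 0.05. Abhd5, Plin2, Plin4, Scarb1, Sort1 and Ppard are filled in both, and Plin5 has the highest value, 3.82 in DMM mice.

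Among 15 tested genes that control the plasma lipases, 2 rose and 1 fell in DMM mice and 2 rose in naive mice. Over all tested genes 23.8% passed in DMM and 11.2% in naive mice, so these counts are near the background. Sort1, the sorting receptor sortilin, averaged 187 ± 58.3 CPM in drug-treated and 72.2 ± 13.4 in vehicle DMM mice (1.37, SE 0.21, edgeR adjusted p = 0.000446), and at 119 and 71.4 CPM in naive mice (0.73, adjusted p = 0.0385). Furin, a proprotein convertase known to cleave endothelial lipase, was at 55.5 and 32.2 CPM in DMM mice (0.78, adjusted p = 0.00460). Sdc1, a heparan sulfate proteoglycan of the cell surface, was at 19.8 and 29.5 CPM there (-0.57, adjusted p = 0.0162). Of 6 tested relatives of the plasma lipases none passed in either drug comparison, with 1 and 0 at an unadjusted p under 0.05. Of all 22778 tested genes, 8496 and 6550 were under it.

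Among 20 tested receptors and carriers of lipoproteins and fatty acids, 1 rose and 3 fell in DMM mice, where 23.8% of all genes passed, and 1 rose in naive mice, where 11.2% passed. Scarb1, the receptor for high-density lipoprotein, rose in both. In DMM mice it averaged 42.8 ± 9.62 CPM in the drug group and 16.0 ± 6.60 in the vehicle group (1.42, SE 0.24, edgeR adjusted p = 0.000952), and at 45.8 ± 4.65 and 12.7 ± 3.26 CPM in naive mice (1.85, SE 0.26, adjusted p = 0.000317). Scarb1 was at 10.4, 10.3, 15.1, 17.9 and 26.3 CPM in DMM vehicle 32, 33, 34, 63 and 64, where the neutrophil sums ran from 386 to 7631 CPM over the same libraries. It was highest in DMM AP20187 62 and 58, at 57.7 and 46.3 CPM, as those sums were. The part of neutrophil RNA in the values of Scarb1 and the other lipid handling genes that rose was not tested. Fabp3, a fatty acid binding protein, fell from 26.6 to 16.8 CPM in DMM mice (-0.66, adjusted p = 0.0320). Of 10 transcription factors, 1 rose in DMM mice, where 11.3% of all genes did, and 2 rose in naive mice, where 8.61% did. Ppard, a nuclear receptor for fatty acids, rose in DMM mice from 8.96 to 17.7 CPM (0.98, adjusted p = 0.00111) and in naive mice from 9.75 to 17.5 CPM (0.85, adjusted p = 0.00697). Nr1h3, the liver X receptor alpha, rose in naive mice from 4.99 to 16.1 CPM (1.69, adjusted p = 0.0161), and was at 15.1 and 8.32 CPM with AP20187 and vehicle in DMM mice (adjusted p = 0.120).

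The genes most like the other members were named by the same measure, again with no p. For Lipe they were Mapkapk2, Ppp1r18 and Lrrfip1, with r of 0.98 each over the 19 libraries and 0.91 to 0.97 within the AP20187 libraries. For Lpl they were Ndrg2, C3ar1 and Rpl9-ps6 (r 0.92, 0.92 and 0.91), and within the 10 vehicle libraries these had r of 0.90, 0.88 and 0.97. C3ar1 is the receptor for complement C3a. For Pnpla2 they were Pnrc1, Polr2m and Ube2r2 (r 0.89, 0.88 and 0.86). Gpihbp1 gave Mrps23, Thap3 and Mgst3, each at 0.78, and Lipc gave Chodl, Ap4m1 and Ppif (0.78, 0.76 and 0.74), the latter from few counts.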

How the data were processed

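RNA of pooled ganglia from 19 mice was measured by stranded poly(A) sequencing. Deposited by the authors were raw counts of reads and FPKM values for 36682 genes. The submitters' processing notes name cutadapt, HISAT2, StringTie and GRCm39, with no versions, and the counting program is not given in the sources used here. Samples were grouped by their labels into 4 groups. Differences in counts were fitted with edgeR 4.0.16 under R 4.3.3 (quasi-likelihood F test, TMM, filterByExpr with a minimum count of 10, two-sided) in 1 model of the 4 groups with 15 residual degrees of freedom and 5 contrasts, and Benjamini-Hochberg adjustment ran over all tested genes. The model code was also run on simulated counts with a fixed spread and 200 changed genes. As these data differ in both, that run does not measure the error here. Depth was 60984830 to 74691396 counts per library. Alternatives were DESeq2 1.42.0, limma 3.58.1 on log2(FPKM + 1) and log2(FPKM + 0.1), voom with sample weights, library totals, no filter, DMM vehicle mice by run of numbers, a replicate block, and leaving out each mouse. Fold changes on the FPKM scale understate those of low genes.

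The members and lists were chosen with earlier results of these data known. By rule, the text names all members, up to 2 genes per direction of each pathway list and comparison with adjusted p under 0.05 and at least 1 CPM in a group, the genes most like each member, and defining markers. Other genes were named with their values in view, and 2 list genes are counted but not reported here by name. The labels do not say whether the mice of a group were handled together or separately. The p-values measure the spread between these mice, and a difference in handling between groups could not be told apart from the effects compared. Sequences came from RefSeq tables of GRCm38.p6, in which 3 of the members (Lipe, Lipc and Pnpla2) had promoters.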

Additional observations from a re-analysis of the deposited data

Results flagged for a closer look

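In 24 sets of libraries, 1 per gene and group, the highest and lowest library were compared with the rest by Dixon's criterion at 95%, under which chance marks about 1 in 20 sets. Lipe in DMM with vehicle had a highest library of 21.1 CPM (number 64), against 9.30 to 11.5 CPM in the other 4. Pnpla2 in naive with vehicle had a highest library of 47.6 CPM (number 4), against 35.3 to 38.6 CPM in the other 4. Naive vehicle 4 also held the highest endothelial marker sum of the vehicle libraries (488 CPM), and DMM vehicle 64 the highest neutrophil marker sum (7631 CPM). Whether those move with Lipe or Pnpla2 was not tested.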

How the results depend on the processing

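Fold changes of the 5 tested members were recomputed 470 times: 414 kept direction and side of the threshold, 50 changed sign, 4 newly passed and 2 no longer passed. Where a value changed, the cause was not tested. The log2 fold change of Lipg stayed between 5.50 and 7.54 in DMM and between 4.26 and 6.08 in naive mice, lowest on log2(FPKM + 1). Members other than Lipg that passed in DMM numbered 0 against vehicle 63 and 64 alone, and in naive mice 1 to 2 when a mouse was left out. Lipid handling genes that passed in DMM (17) numbered 38 with voom, 29 against vehicle 32 to 34, 8 against vehicle 63 and 64, and 13 to 27 without single mice. In the same settings all genes that passed (5410 in the main model) numbered 10676, 8450, 1156, and 3212 to 7677. In naive mice (8) the lipid handling genes numbered 16 with DESeq2, 15 and 16 on FPKM with pseudocounts of 1 and 0.1, 19 with voom, and 4 to 11 without single mice. All genes that passed there (2548 in the main model) numbered 4356, 4147, 4225, 4542, and 994 to 3452. For DMM against naive with vehicle (0) there were 5 when vehicle 63 and 64 alone were used, beside 541 of all genes. With AP20187 there were 2 members with voom, and 2 lipid genes with DESeq2, 4 and 3 on FPKM and 8 with voom. For the difference of the drug effects, vehicle 63 and 64 alone gave 1 member (Lpl, -2.36, adjusted p = 0.0379) and 1 lipid gene. Of all genes 90 were called there. Genes called over the whole table numbered 1156 to 10676 in DMM and 994 to 4542 in naive mice. For DMM against naive with AP20187 (160) they numbered 1109 with DESeq2, 1220 with limma on log2(FPKM + 1), 2456 with voom, and 43 (without DMM AP20187 59) to 269 (without 61) when a mouse was left out. For the difference of the drug effects (26) they numbered 224 with DESeq2, 56 and 35 on FPKM, 53 with voom, and 12 to 57 when a mouse was left out. In naive mice 1962 were higher and 586 lower with TMM, 1550 and 915 with library totals, and 1625 and 2522 with limma on log2(FPKM + 1).

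Sign changes were all of values that missed the threshold in the main model. For Pnpla2 in DMM they were -0.029 with library totals, -0.0027 without the filter, -0.0097 and -0.0085 on FPKM, and -0.30 against vehicle 63 and 64, which also gave -0.50 for Lpl. Without single mice, the DMM values ran from -0.087 to 0.36 for Lpl, -0.58 to 0.070 for Lipc and -0.073 to 0.13 for Pnpla2. For DMM against naive with vehicle, vehicle 32 to 34 gave -0.10 for Lpl and -0.046 for Lipe, and vehicle 63 and 64 gave 0.038 for Lipc and 0.28 for Pnpla2. Without single mice these ran from -0.37 to 0.12 for Lipc, -0.0081 to 0.33 for Lipe and -0.18 to 0.020 for Pnpla2. With AP20187, Lipc ran from -0.28 to 0.86. For the difference of the drug effects, Gpihbp1 was 0.54 with voom and 0.38 against vehicle 32 to 34, and Lipe was -0.39 against vehicle 63 and 64. Without single mice, Lipc ran from -0.21 to 0.92, Lipe from -0.18 to 0.26 and Gpihbp1 from -0.63 to 0.14.

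Naive AP20187 and naive vehicle mice share the numbers 1, 3, 4 and 5. Deviations from the group means correlated by 0.0078, 0.25, -0.05 and 0.22 for these numbers, and only numbers 3 and 5 correlated best with their own number. As 2 of the 4 correlations were under 0.1, the numbers were not taken to pair the mice. With the replicate block 2352 genes passed in naive mice, with 2 members (Lpl 1.77, Lipe 0.99) and 9 lipid handling genes, and no member's call changed. Lipc and Gpihbp1 have too few counts for a firm comparison.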
